A study of Mus musculus with 3 samples.

Results

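The constant genes of the immunoglobulin heavy chain are 8 genes on mouse chromosome 12, each of which encodes the constant part of 1 antibody isotype or IgG subclass. They were chosen by name, as the rows Ighm, Ighd, Ighg3, Ighg1, Ighg2b, Ighg2c, Ighe and Igha of a table of 27088 genes, and all 8 were found there. The table came from RNA sequencing of spleen B cells in a mouse model of allergic rhinitis, the nasal allergy that hay fever belongs to. Female BALB/c mice, aged 6 weeks at the start and labelled as 13 weeks old for the samples, formed the PBS and SJMHE1 groups. All of them received ovalbumin (OVA, 10 μg) with 2 mg of the adjuvant aluminum hydroxide intraperitoneally on days 0, 7 and 14. From day 21 to day 27, and again from day 29 to day 35, 100 μg OVA was given into the nose. On days 0, 14 and 28 the PBS group was injected with PBS, and the SJMHE1 group with 10 μg of SJMHE1, a small peptide from the parasitic worm Schistosoma japonicum, emulsified in incomplete Freund's adjuvant. The mice were killed on day 36. The PBS injections held no adjuvant, so the peptide and this adjuvant cannot be told apart in any difference between the groups. Splenic B cells were isolated by flow sorting, and 3 mice contributed to each pooled library, with 1 such library per group. There is therefore no replicate check, no p-value was computed, and each difference is a description of 2 pooled libraries. The series also holds a Control group of healthy mice, which was not analysed here.

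A naive B cell makes IgM and IgD together, from 1 long transcript that runs through Ighm and Ighd and is spliced in alternative ways. After activation, class switch recombination cuts out the DNA between Ighm and a constant gene further along the chromosome, so that the same variable region is joined to another isotype. Interleukin-4 directs switching to IgG1 and IgE in the mouse, interferon-γ to IgG2a or its counterpart IgG2c, and TGF-β to IgA and IgG2b. IgE is the isotype that arms mast cells and basophils in allergy. Before a constant gene is switched to, it gives a germline transcript of the same constant exons that makes no antibody, and reads from the 2 kinds of transcript are counted together in a table by gene.

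The deposited positions match those of the GENCODE M21 annotation on GRCm38 for each of the 8 genes, all on the minus strand. Read from the variable side, the order is Ighm, Ighd, Ighg3, Ighg1, Ighg2b, Ighg2c, Ighe and Igha. Ighm lies at chr12:113418558-113422730 and Igha, the last, at chr12:113254830-113260236, with its start 162 kb from that of Ighm. Ighg1 starts 92.2 kb and Ighe 149 kb from the start of Ighm. The annotation gives each gene 2 transcripts, which share the constant exons and differ at their end. Between Ighm and Igha the table lists 3 further rows, all of them processed pseudogenes, and none of these had more than 17 counts in either library.

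Whether the 8 genes can be told apart by short reads depends on their sequences, and the beginnings of their first constant exons, onto which the variable region is spliced, are shown for that reason. Each is 60 bases, from the GENCODE M21 transcripts on GRCm38, minus strand, written 5′ to 3′. In Ighg3, Ighg2b and Ighg2c, capitals mark the bases that differ from Ighg1 at the same place.
Ighm, chr12:113422671-113422730: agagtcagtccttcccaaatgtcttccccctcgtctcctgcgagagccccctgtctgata
Ighd, chr12:113416265-113416324: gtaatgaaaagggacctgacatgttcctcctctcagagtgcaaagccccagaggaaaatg
Ighg3, chr12:113361173-113361232: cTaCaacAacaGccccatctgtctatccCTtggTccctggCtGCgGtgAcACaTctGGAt
Ighg1, chr12:113330464-113330523: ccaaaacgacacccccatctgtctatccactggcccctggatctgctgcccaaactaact
Ighg2b, chr12:113307874-113307933: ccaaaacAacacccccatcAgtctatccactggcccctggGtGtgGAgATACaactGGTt
Ighg2c, chr12:113288873-113288932: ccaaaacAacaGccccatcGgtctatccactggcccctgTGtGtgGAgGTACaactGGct
Ighe, chr12:113273189-113273248: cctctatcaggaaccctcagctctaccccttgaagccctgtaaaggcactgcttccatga
Igha, chr12:113260177-113260236: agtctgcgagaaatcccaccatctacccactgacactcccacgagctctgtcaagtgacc
In these 60 bases Ighg3 differs from Ighg1 at 18 places, Ighg2b at 13 and Ighg2c at 14. Over the whole first exon of 291 bases, Ighg1 is 88.3% identical to Ighg2b and 88.0% to Ighg2c, and Ighg3 is the most distant of the IgG genes, with 78.4% to 79.0% identity to the others.

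The second exon of the IgG genes encodes the hinge, the flexible stretch between the antigen-binding arms and the tail of the antibody. The length of this exon differs between the subclasses. Capitals mark its cysteine codons in the annotated reading frame, since cysteines of the hinge link the heavy chains to each other.
Ighg3, chr12:113360529-113360576: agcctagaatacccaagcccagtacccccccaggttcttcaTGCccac
Ighg1, chr12:113329844-113329882: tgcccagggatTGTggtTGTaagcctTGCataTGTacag
Ighg2b, chr12:113307261-113307326: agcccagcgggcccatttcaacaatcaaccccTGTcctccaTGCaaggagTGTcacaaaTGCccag
Ighg2c, chr12:113288263-113288325: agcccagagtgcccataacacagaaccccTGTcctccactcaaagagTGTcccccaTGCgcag
The hinge exon of Ighg1 has 39 bases and 4 cysteine codons, that of Ighg2b 66 bases and 4, that of Ighg2c 63 bases and 3, and that of Ighg3 48 bases and 1. When every window of 50 bases of the annotated transcripts was compared with all other annotated transcripts, on both strands, no window of Ighm, Ighd, Ighe or Igha was found in another gene. The share of windows found in another gene was 0.393% for Ighg1, 1.58% for Ighg3, 4.15% for Ighg2b and 5.49% for Ighg2c, always in other IgG genes. Reads could be split between Ighg2b and Ighg2c more than between the other genes. The windows are of the reference sequence and the read length is not stated, so how the reads themselves were split was not tested. The reference carries Ighg2c, as the C57BL/6 strain does, whereas BALB/c mice carry the allele known as Ighg2a, so the row Ighg2c holds only those reads of the BALB/c gene that aligned to its counterpart.

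The PBS library held 48267168 counts and the SJMHE1 library 51280237, of which the 8 genes together held 1.15% and 1.14%. A gene without counts could still have up to 3, and as CPM (counts scaled to library size) this floor is 0.0622 for PBS and 0.0585 for SJMHE1. The labelled cell type was checked against 9 B cell markers, which had FPKM values (read counts scaled by gene length and by library size) from 22.6 to 4643 in the PBS library and from 20.5 to 4297 in the SJMHE1 library, and of which 0 of 9 differed more than 2-fold. Markers of other cell types were also present, not all of them at low levels, and some moved between the libraries. The neutrophil marker S100a9 had FPKM values of 196 in the PBS and 266 in the SJMHE1 library. All 10 T cell markers were lower in the SJMHE1 library, 9 of them more than 2-fold, with a summed FPKM of 78.5 in the PBS and 37.9 in the SJMHE1 library and none at 0. Of the 12433 genes compared as set out below, 3.57% were lower by more than 2-fold and 6453 were lower at all. All 6 NK cell markers were lower, with sums of 14.3 and 6.61. Red cell markers were higher in 6 of 6 cases, with sums of 147 and 193, and the neutrophil markers, higher in 3 of 6, summed to 297 and 402. The sum of 10 macrophage markers was 30.2 and 26.4, although only 3 of the 10 were lower. C1qb and C1qc were more than 2-fold higher, as were 2.43% of the genes compared. The 6 dendritic cell markers summed to 7.83 and 3.78, with 5 of 6 lower. In such bulk samples, fewer cells of a type and less RNA per cell cannot be told apart.

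The RNA of the unswitched isotypes was close to equal in the 2 libraries, and that of the switched isotypes was lower in the SJMHE1 library. Ighe, Ighg1 and Igha were 2.08 to 3.33-fold lower with SJMHE1, Ighg2c 1.82-fold lower, and Ighg2b and Ighg3 at most 1.17-fold lower, while Ighm and Ighd were 1.04- and 1.08-fold higher. The threshold used was a log2 FPKM ratio, SJMHE1 to PBS, above 1 or below -1, for genes whose FPKM reached 1 in either library and was above 0 in both, which all 8 genes passed. Below -1 lay 3 of the 8 genes, beside 3.57% of the 12433 genes compared, and above 1 lay 0 of the 8, beside 2.43%. Since each of the 8 had at least 100 counts in both libraries, the same shares were also taken over the 10966 genes with that many counts, and were 1.42% for lower and 0.666% for higher. With a threshold of 1.5-fold, 4 of the 8 were lower, Ighg2c being the addition, beside 7.91% of all genes, and 0 were higher, beside 5.73%. The median log2 ratio was -0.55 over the 8 genes and -0.01 over all genes compared. The markers of T cells, NK cells, basophils and mast cells were lower in the SJMHE1 library too, as were 5 of 6 plasma cell markers (summed FPKM 451 and 375), 6 of 7 germinal centre markers and 5 of 6 dendritic cell markers, and their part in these values was not tested. Of the 12433 genes compared, 6453 had a log2 ratio below 0. With 1 library per group, none of these shares says how far 2 libraries of the same treatment would differ.

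**Figure D1:**
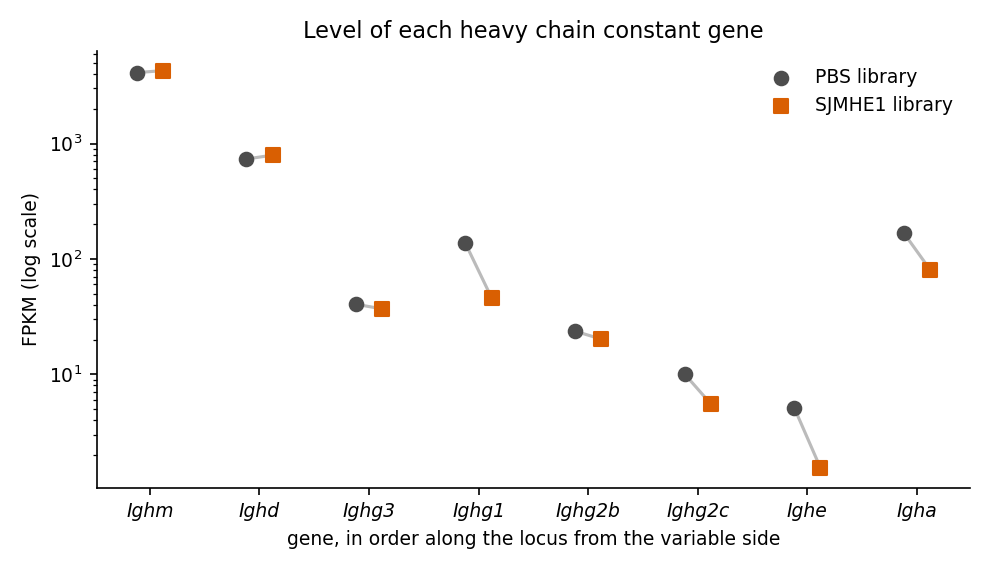
FPKM, on a log scale, of each heavy chain constant gene in the PBS library (circles) and the SJMHE1 library (squares), 1 pooled library per group, in the order of the genes along the locus. Ighm lies highest, at 4116 and 4284, and the step of Ighg1, Ighe and Igha from the PBS to the SJMHE1 library is the widest.

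IgM and IgD are the antigen receptors of the naive B cell. Ighm had an FPKM of 4116 in PBS B cells and 4284 in SJMHE1 B cells, from 426113 and 469496 counts. It was the sixth most abundant gene of the table in the PBS library and the fourth in the SJMHE1 library. Its log2 ratio was 0.06, with a counting interval from 0.05 to 0.06. Such intervals are at the 95% level, are exact Clopper-Pearson limits computed from the 2 counts, and cover counting error only. Ighd had an FPKM of 734 and 793 from 76502 and 87543 counts, a log2 ratio of 0.11 (0.10 to 0.13). The level of Ighm was 5.61 times that of Ighd per length in PBS B cells and 5.40 times in SJMHE1 B cells. The long transcript that gives both is spliced to IgD with the help of the zinc finger protein ZFP318, and Zfp318 had FPKM values of 30.6 and 32.5.

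IgE and IgG1 are the isotypes that interleukin-4 directs in the mouse, and both were lower with SJMHE1 by a like amount. Ighe was the least abundant of the 8 genes, with an FPKM of 5.13 in PBS B cells and 1.54 in SJMHE1 B cells, from 447 and 142 counts. This is a 3.33-fold lower level, with a counting interval from 2.75- to 4.05-fold and a log2 ratio of -1.74 (-2.02 to -1.46). It was the largest difference among the 8 genes, and ranked 24 from the lowest among the 11366 genes whose FPKM reached 1 in both libraries. With a pseudocount of 1 added to each FPKM, the difference of Ighg1 was the larger. Ighg1 had an FPKM of 136 in PBS B cells and 45.7 in SJMHE1 B cells, from 19368 and 6885 counts. It was 2.98-fold lower (2.90 to 3.06), a log2 ratio of -1.57, and ranked 33 among the same genes. Among the 768 genes with a mean FPKM of 50 or more, its rank was 6 from the lowest. The counting intervals of Ighe and Ighg1 overlap, and their log2 ratios differ by 0.16 (interval -0.11 to 0.44). Per length, Ighg1 RNA was 26.5 times as abundant as Ighe RNA in PBS B cells and 29.7 times in SJMHE1 B cells.

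IgE bound on the surface of mast cells and basophils is protein and leaves no Ighe RNA in those cells, but their presence was measured all the same. The 6 markers of basophils and mast cells were all lower in the SJMHE1 library, with a summed FPKM of 6.22 for PBS and 1.15 for SJMHE1 and none at 0. These levels are low, and only 2 of the 6 passed the filter. Prss34, a protease of basophils, had FPKM values of 2.38 and 0.11 from 160 and 8 counts. Ms4a2, the β chain of the high-affinity IgE receptor, had 0.42 and 0.07 from 65 and 12 counts. The counting interval of the log2 ratio of Fcer1a, -1.53 to 0.25, holds 0. The part of these cells in the Ighe value was not tested. Fcer2a, the low-affinity IgE receptor CD23 of B cells, had FPKM values of 262 and 260.

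IgA is the isotype of mucosal secretions. Igha was the most abundant switched gene in both libraries, with an FPKM of 168 in PBS B cells and 80.6 in SJMHE1 B cells, from 24565 and 12499 counts. It was 2.08-fold lower (2.04 to 2.13), a log2 ratio of -1.06 (-1.09 to -1.03), which is just past the threshold. Rescaling both libraries to the same FPKM sum adds 0.08 to every log2 ratio and brings Igha to -0.97, short of the threshold. Its difference was smaller than those of Ighg1 and Ighe. The log2 ratio of Ighg1 lay 0.52 below that of Igha (interval of the difference -0.57 to -0.47), and that of Ighe 0.68 below (-0.95 to -0.40).

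The other IgG genes differed less, and not alike. Ighg2c, the IgG subclass of interferon-γ responses, had an FPKM of 10.0 in PBS B cells and 5.52 in SJMHE1 B cells, from 731 and 426 counts. Its log2 ratio was -0.86 (-1.04 to -0.69), so that the threshold lies inside its counting interval, and this interval overlaps that of Igha. The log2 ratio of Ighg2c was nevertheless 0.19 above that of Igha, with an interval of the difference from 0.02 to 0.37, which leaves out 0. Ighg3, a subclass made in quantity against carbohydrates, had an FPKM of 40.4 and 36.9 from 5576 and 5379 counts, a log2 ratio of -0.13 (-0.19 to -0.08). Ighg2b, which TGF-β promotes, had an FPKM of 23.6 and 20.1 from 3476 and 3134 counts, a log2 ratio of -0.23 (-0.30 to -0.16). The intervals of Ighg3 and Ighg2b overlap, but the interval of their difference, 0.10 (0.0089 to 0.19, Ighg2b the lower), leaves out 0. Of the 28 pairs of the 8 genes, 3 had overlapping intervals, namely Ighg3 with Ighg2b, Ighg1 with Ighe, and Ighg2c with Igha. These intervals cover counting error only and are narrow at high counts, and no such share was taken over pairs of other genes. The number of pairs without overlap is therefore no result about these 8 genes.

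**Figure D2:**
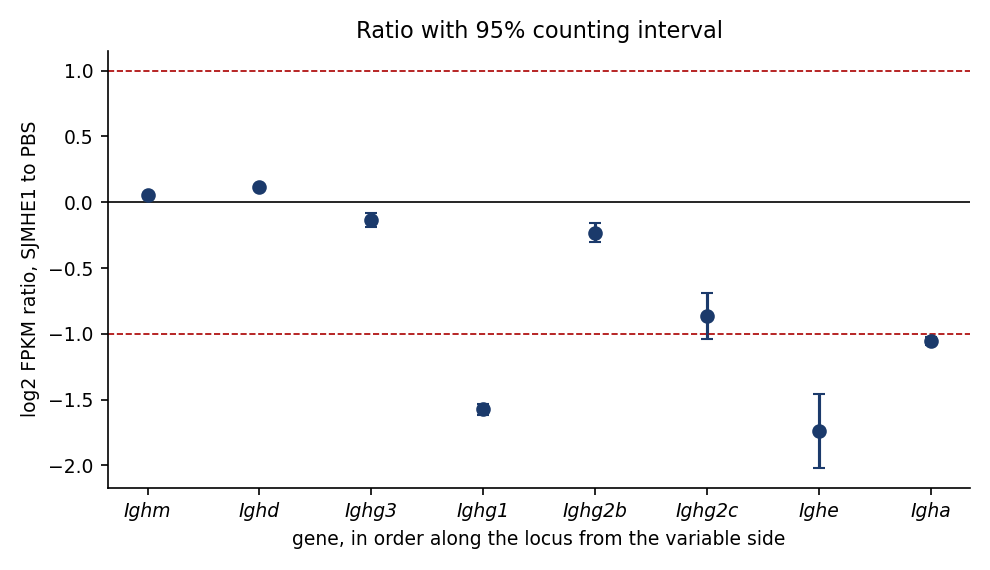
The log2 FPKM ratio, SJMHE1 to PBS, of each heavy chain constant gene, with bars for the 95% counting interval and dashed lines at -1 and 1. Ighg1, Ighe and Igha lie below -1, Ighg2c crosses the line with its interval, and Ighm and Ighd lie just above 0.

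The order of the genes along the chromosome was not the order of their ratios. Ighg1 and Ighg2b, with starts 92.2 and 115 kb from that of Ighm, are neighbours, and their log2 ratios differ by 1.34 (interval 1.26 to 1.42, Ighg1 the lower). Ighg3, 61.5 kb from the start of Ighm, differed from Ighg1, the next gene, by 1.44 (1.37 to 1.51). In the PBS library Ighg1 RNA was 5.76 times as abundant as that of Ighg2b and 3.37 times that of Ighg3 per length. In the SJMHE1 library these were 2.27 and 1.24 times.

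The make-up of the heavy chain RNA differed accordingly. Of the summed FPKM of the 8 genes, Ighm made up 78.7% in PBS B cells and 81.3% in SJMHE1 B cells, and Ighd 14.0% and 15.1%. The 6 switched genes together made up 7.32% and 3.61%. Their summed FPKM was 383 in PBS B cells and 190.4 in SJMHE1 B cells, 2.01-fold lower, while that of Ighm and Ighd was 4850 and 5077. In counts, which give long genes more weight, the switched genes held 9.73% (exact binomial interval 9.65 to 9.81) of the 556778 counts of the 8 genes in the PBS library and 4.86% (4.81 to 4.92) of 585504 in the SJMHE1 library. The summed FPKM of all 8 genes was 5233 and 5268, so that the total of heavy chain constant RNA was nearly the same while its switched share was lower.

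Within the switched genes alone, the share of Ighg1 was lower and those of Ighg3 and Ighg2b were higher in the SJMHE1 library. Ighg1 made up 35.5% of the switched FPKM in PBS B cells and 24.0% in SJMHE1 B cells. Ighg3 made up 10.6% and 19.4%, and Ighg2b 6.17% and 10.6%, although the levels of both were slightly lower, since the switched total was lower by more. Igha kept the largest share, with 43.8% and 42.3%. Ighg2c made up 2.62% and 2.90%, and Ighe 1.34% and 0.809%. In counts, the share of Ighe among switched genes was 0.825% (0.751 to 0.905) and 0.499% (0.420 to 0.588). That of Igha was 45.4% (44.9 to 45.8) and 43.9% (43.3 to 44.5). Of these exact binomial intervals, only those of Ighg2c, 1.25 to 1.45 and 1.36 to 1.64, overlap between the libraries. The intervals cover counting error only, so a lack of overlap is nothing particular to Ighe and does not measure the spread between libraries.

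**Figure D3:**
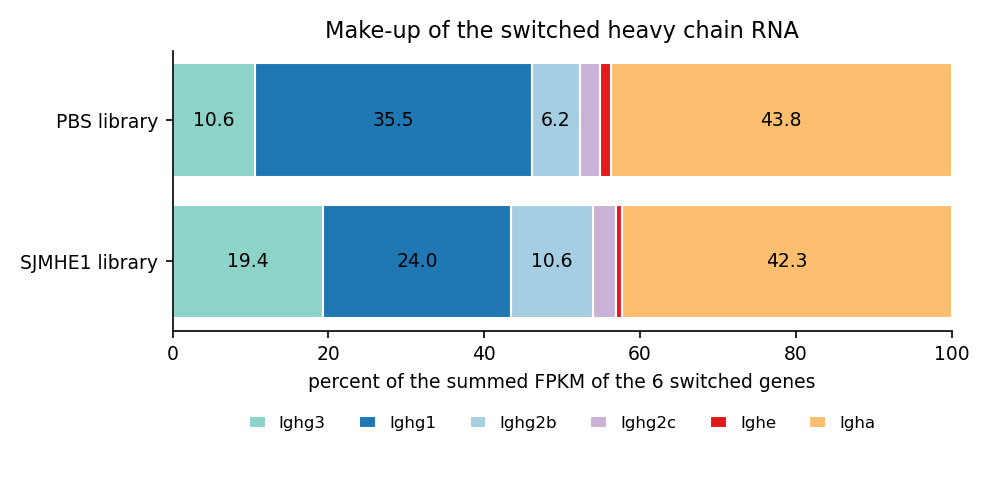
Percent of the summed FPKM of the 6 switched heavy chain genes that each gene made up, as a stacked bar for the PBS and the SJMHE1 library. The part of Ighg1 is 35.5% in the PBS bar and 24.0% in the SJMHE1 bar, and that of Ighg3 is 10.6% and 19.4%.

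Class switching needs DNA repair and accessory proteins, and 29 genes of that list, which is not reported in full here, were compared. Their log2 ratios ran from -0.65 for Hmces, which shields abasic DNA, to 0.62 for Apex2, a nuclease for such DNA. Ung, which removes uracil from DNA, had FPKM values of 1.82 and 1.33, a log2 ratio of -0.45. Parp1, a sensor of DNA breaks and the most abundant of these genes, had 68.6 and 70.5. Trp53bp1 and Rif1, which guide the joining of the broken switch regions, had log2 ratios of 0.21 and 0.43. The median of the 29 genes was 0.10.

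Germinal centres are the sites where activated B cells divide and mature, and most markers of germinal centre B cells were lower in the SJMHE1 library. Of 7 such markers 6 were lower, none was at 0, and 3 were past the threshold, beside 3.57% of all genes compared, with a summed FPKM of 42.2 in PBS B cells and 32.1 in SJMHE1 B cells and a median log2 ratio of -0.79. The marker genes named singly were picked after their values were seen. Gcsam, which restrains the movement of germinal centre cells, had FPKM values of 2.99 and 0.90. S1pr2, a receptor that keeps cells in the germinal centre, had 1.56 and 0.63, and Rgs13, which dampens chemokine signals, had 7.78 and 3.45. Bcl6, the transcription factor of these cells, had 11.1 and 13.5, a log2 ratio of 0.29. Whether germinal centre cells account for the switched heavy chain values was not tested.

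The receptors and factors that direct switching were within 2-fold, with 1 exception among those compared. Of the 26 genes of that list 25 were compared, and 1 was lower past the threshold, near the 3.57% of all genes. Il4ra, which receives interleukin-4, had FPKM values of 30.2 and 30.5, and Stat6, its transcription factor, had 52.6 and 63.2. Il2rg, the shared receptor chain and the most abundant of the list, had 141 and 154. Nfil3, a transcription factor that the IgE switch of B cells depends on, was the gene past the threshold, with an FPKM of 4.84 in PBS B cells and 2.05 in SJMHE1 B cells, from 538 and 242 counts. It was 2.36-fold lower, a log2 ratio of -1.24 (-1.46 to -1.02). The interferon-γ receptor genes Ifngr1 and Ifngr2 had log2 ratios of -0.02 and 0.06, and the TGF-β receptor genes Tgfbr1 and Tgfbr2 had -0.10 and 0.02. Runx2, of the family that acts in the switch to IgA, had an FPKM of 0.97 and 0.25 and was below the filter. The median of the list was 0.02. Among the factors that process the RNA of Ighm and Ighd, 12 of 13 were compared and 0 were past the threshold in either direction. Hnrnph1, the most abundant of them over both libraries, had FPKM values of 149.7 and 163, and Hnrnpf had 150.4 and 150.2.

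Most genes of antibody secretion were within 2-fold. Of the 20 genes of that list 19 were compared, 2 were past the threshold, both lower, beside 3.57% of all genes compared, and the median log2 ratio was -0.08. Jchain, which links IgM and IgA into polymers and was the most abundant of the list, had FPKM values of 388 and 313, a log2 ratio of -0.31 (-0.33 to -0.29). Prdm1, the transcription factor of plasma cells, had 2.31 and 2.19, and Xbp1, which enlarges their secretory apparatus, had 25.5 and 33.8. Sdc1, the plasma cell surface marker CD138, had a log2 ratio of -0.45. Tnfrsf17, the survival receptor BCMA, had 1.93 and 0.87 from 87 and 42 counts, and Cd28 had 1.65 and 0.29. Both were past the threshold, with an FPKM below 1 in the SJMHE1 library. Cd28 is also a gene of T cells, whose markers were lower as given above, and their part in its value was not tested. The 6 plasma cell markers, all of them also in the secretion list, summed to 451 in PBS B cells and 375 in SJMHE1 B cells, with 5 of 6 lower.

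Light chains pair with every heavy chain, and the RNA of the κ chain was near equal. Igkc, the constant gene of the κ chain, had an FPKM of 7952 in PBS B cells and 7579 in SJMHE1 B cells, a log2 ratio of -0.07 (-0.08 to -0.06). The λ genes Iglc1, Iglc2 and Iglc3 had log2 ratios of -0.45, -0.15 and -0.14. Iglc4 was higher past the threshold, with FPKM values of 1.42 and 3.73 from 25 and 69 counts. It was 1 of the 6 genes compared in the light chain list, beside 2.43% of all genes. Igll1 and Vpreb2, parts of the surrogate light chain of B cell precursors in the bone marrow, were listed at 0 in both libraries. Vpreb1, another such part, had 0 counts in the PBS and 10 in the SJMHE1 library, with FPKM values of 0 and 0.13. Receptors for antibody were mostly within 2-fold. Of the 16 genes of this list 15 were in the table and 11 were compared, with a median log2 ratio of 0.00. Cd79a, the signalling partner of the B cell receptor and the most abundant of them, had FPKM values of 835.02 and 835.2. Fcmr, the receptor for IgM, had 423 and 425, and Fcgr2b, the inhibitory receptor for IgG, had 23.3 and 23.6. Fcgr4, an IgG receptor of myeloid cells, was past the threshold with 0.91 and 1.91 from 63 and 140 counts, the 1 gene of the list that was higher, beside 2.43% of all genes. Fcgr3, another IgG receptor of such cells, lay in the other direction, just short of the threshold, with 2.75 and 1.38 from 263 and 140 counts, 1.99-fold lower.

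**Figure D4:**
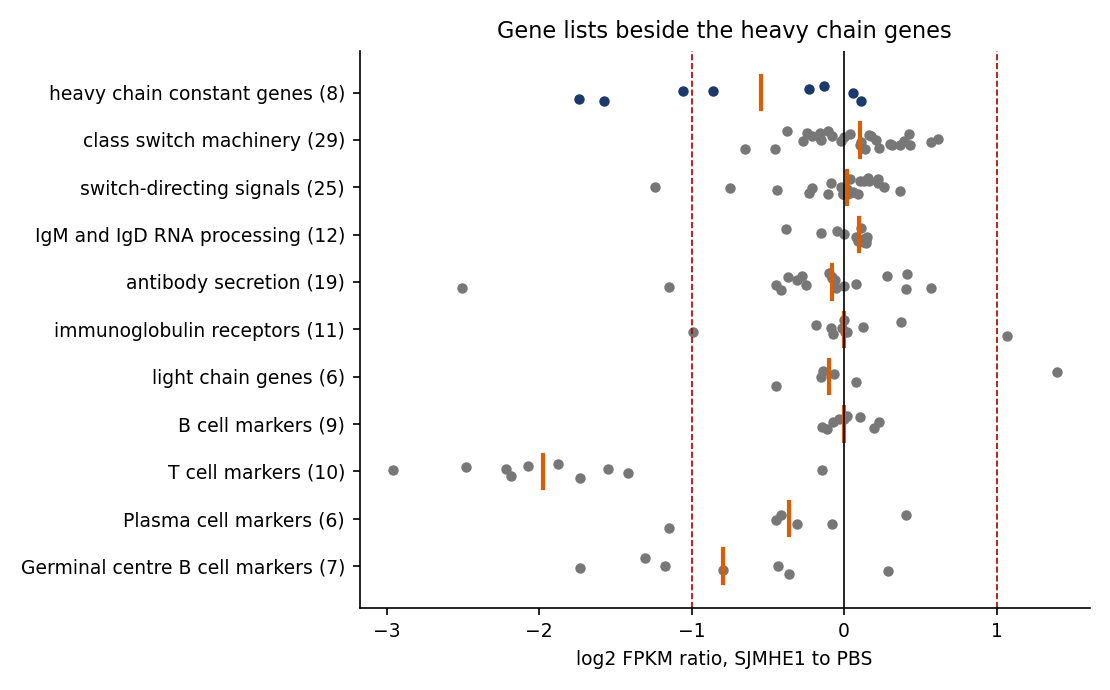
The log2 FPKM ratio, SJMHE1 to PBS, of each gene compared and reported in the heavy chain set, the 6 pathway lists and 4 marker lists (number of genes in brackets), with an orange line at the median of each list and dashed lines at -1 and 1. The medians of the 6 pathway lists lie between -0.10 and 0.10, those of the heavy chain genes, the germinal centre markers and the T cell markers at -0.55, -0.79 and -1.98.

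Subsets of mature B cells that are rich in IgM or IgD were compared through their markers. The 8 marginal zone markers had a median log2 ratio of 0.01 and none past the threshold, with summed FPKM values of 302 and 379. Cr2, the complement receptor CD21, had the largest difference of these, with 136 and 218. The 6 follicular markers had a median of 0.00 and none past the threshold, although Ccr7, a chemokine receptor, had 142 and 80.5.

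Genes with a ratio most like that of a heavy chain gene were looked for among the 3635 protein-coding genes outside the immunoglobulins whose FPKM reached 10 in both libraries. The nearest to Ighm in log2 ratio were Casp1, Exoc3 and Tigd2, each with a log2 ratio of 0.06. None of these genes was as near to Ighe, which itself lies below that filter, with FPKM values of 5.13 and 1.54. The nearest to Ighe among the 3635 were Lars2, at -2.20, and Sik1 and Atf3, both at -1.25, which are 0.46, 0.48 and 0.49 away. Among genes with an FPKM of 1 or more in both libraries, Ighe ranked 24 and Ighg1 33 from the lowest. Genes with ratios nearer to that of Ighe lie between them. This likeness rests on 2 libraries alone.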

How the data were processed

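RNA of sorted spleen B cells was sequenced after rRNA depletion, from 1 mixture of 3 mice for each group. The authors deposited whole-number read counts per gene, not normalized, and FPKM values rounded to 2 decimals. Per the submitters' processing notes the build was mm10, and the tools named there, with no role, are bcl2fastq 2.0, HISAT2, StringTie, DESeq2 and limma. Strand use, read length and the counting rule are not given in the sources used here. The log2 ratio of the counts scaled to library totals differed from that of the FPKM by a median of -0.01 over 10966 genes, so both scales give like ratios. Values per gene do not separate membrane from secreted forms.

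By their names, 4 value columns belong to the PBS and SJMHE1 libraries. The names of 2 others fit no label, and those 2 were not used, so that no comparison with the Control group was made. The 8 genes, the 6 pathway lists, the 12 marker lists and the settings were chosen with earlier results of these data known. Named are all 8 genes, the pathway genes past the threshold with an FPKM of 1 or more in both libraries, the most abundant gene of each list, and the 3 genes most like Ighm and like the gene with the largest ratio among those with at least 50 counts. Other genes of the lists were picked for their role or level after their values were seen. H2afx and Faim3 were not found under those names. The values of some genes of the lists are not reported here, and the counts and medians of the lists leave them out.

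With 1 library per group, count tests that need replicates could not be fitted. The arithmetic was tested on simulated data. The software was Python 3.11.15 (scipy 1.17.1, pandas 2.3.3, numpy 2.4.6, matplotlib 3.10.9). The alternatives were CPM in place of FPKM, pseudocounts of 0.1 and 1, 3 rescalings, other filters, a 1.5-fold threshold and other bases for the shares. A minimum of 100 counts was added after the data were examined.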

Additional observations from a re-analysis of the deposited data

How the results depend on the processing

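The direction of the log2 ratio of each of the 8 genes was the same in all 48 alternatives tried for them, and 3 genes were lower and 0 higher past the threshold under each filter, in CPM and with a pseudocount of 1. With a 1.5-fold threshold 4 were lower. Rescaling to the same FPKM sum gave log2 ratios of 0.14 for Ighm, 0.20 for Ighd, -1.49 for Ighg1, -0.15 for Ighg2b, -0.051 for Ighg3 and -0.97 for Igha, which is then no longer past the threshold. Leaving out the 50 most abundant genes and the immunoglobulin genes from that sum gave 0.091 for Ighm, 0.15 for Ighd and -1.02 for Igha, and median centring gave 0.070 for Ighm. These scalings shift all genes by 0.08, 0.03 and 0.01. A pseudocount of 1 gave -1.27 for Ighe and -1.55 for Ighg1, so that Ighg1 then had the largest difference of the 8 genes. The share of the switched genes was 9.73% for PBS and 4.86% for SJMHE1 in counts, and 8.51% and 4.25% without Ighd. Of the 101 genes of the pathway lists compared, 3 were lower and 2 higher past the threshold, beside 3.57% and 2.43% of all genes, so that neither share stands above that of all genes. These were 1 and 0 with a pseudocount of 1, and 5 genes were lower with no filter. No paired analysis was possible because there is a single library of each group, and no replicate could be left out. The alternatives for the Control group were not run. The counting intervals of Ighe and Ighg2c, which rest on 142 and 426 counts in the SJMHE1 library, are the widest.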

Other observations

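Upstream of Ighm lie the joining (J) segments, the last part of the variable region, and their rows differed among themselves, as was seen after the values were examined. Ighj1 had FPKM values of 61.7 in the PBS and 206 in the SJMHE1 library, from 180 and 634 counts, a log2 ratio of 1.74 (counting interval 1.496 to 1.98). Ighj2, Ighj3 and Ighj4 had log2 ratios of 0.15, -0.08 and 0.10, from at least 1340 counts in each library. The diversity segment Ighd4-1 had 5 and 20 counts. The annotated length of Ighj1 is 53 bases, beside 48 for Ighj3 and 54 for Ighj4, and that of Ighd4-1 is 11 bases. Whether reads of unspliced or of other transcripts are counted in these rows was not tested.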
